A study of Rattus norvegicus with 91 samples.

Results

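The synaptic vesicle and release machinery is the set of proteins that fills the presynaptic terminal with vesicles, docks and primes them, fuses them when calcium enters, and recovers the membrane afterwards. It was described here as 41 genes, taken as every probe set whose platform annotation gave exactly 1 gene symbol equal to one of them. For 39 of the 41 genes, among 14217 genes with such a probe set, at least 1 was found, 61 probe sets in all of 31042 measured, and none was found for Doc2a and Erc2. Of the 61, 50 probe sets of 35 genes were bright enough to be tested, among 21204 probe sets and 11094 named genes tested. No tested probe set remained for Syt2, Rims1, Unc13a and Unc13b.

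Ventral tegmental area tissue of 91 rats had been measured, 1 animal to an array, on a rat expression array. The rats came from 5 pairs of lines bred for high or low alcohol consumption. Each pair set a high-consumption line beside its low-consumption partner. They were 8 HAD1 and 10 LAD1 rats, 8 HAD2 and 9 LAD2 rats, 9 P and 10 NP rats, 10 AA and 10 ANA rats, and 8 sP and 9 sNP rats. HAD1/LAD1 and HAD2/LAD2 are replicate selections of high- and low-alcohol-drinking rats, P/NP are alcohol-preferring and non-preferring rats, AA/ANA are the Finnish alcohol and non-alcohol lines, and sP/sNP are the Sardinian pair. The sources used here do not state age, sex or any exposure to alcohol, and a line difference may hold alleles fixed by drift as well as by selection. The question was which members differed between the high- and the low-consumption line of a pair. Levels were not compared between pairs.

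When an action potential opens calcium channels at the active zone, synaptotagmin senses the calcium and the SNARE proteins synaptobrevin, syntaxin and SNAP-25 zip together and pull the vesicle into the membrane. Complexins and Munc13 hold or prepare the SNARE complex, NSF with the SNAP adaptors takes it apart for reuse, and dynamin with its partners retrieves the membrane. Dopamine neurons of the ventral tegmental area release dopamine from axon terminals in the forebrain and also from their own dendrites, and the tissue holds GABA and glutamate neurons whose cell bodies make the same proteins. Transcripts in such tissue come from these cell bodies, not from the terminals that end there. In tissue like this, fewer cells of a type and less RNA per cell cannot be told apart.

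Several properties of the arrays come before the results. The deposited values were log2 signals that the authors had made with RMA, per the submitters' processing notes. The value distributions fell into 5 sets. In table order the sets ran over 17, 18, 20, 17 and 19 arrays, while the labelled pairs ran over 17, 18, 19, 20 and 17, so 3 arrays (AA 1, AA 19 and ANA 20) lay in the set of another pair. Because the labels of the 56 arrays outside the HAD/LAD pairs may therefore be misplaced, their groups are called arrays labelled with a line, and the 35 HAD/LAD arrays were fitted apart from them. Th, which codes for tyrosine hydroxylase and marks dopamine neurons, had line medians between 13.90 (LAD2) and 14.40 (LAD1) over the HAD/LAD lines, and its lowest values were 9.12 in the array labelled P 10 and 8.23 in NP 8. Within-line correlations over all probe sets lay between 0.9596 (P) and 0.9979 (sNP), and no 2 arrays were identical. The 3'-minus-5' signal of Gapdh, a measure of RNA quality, averaged 1.90 in HAD1, against 1.78 in LAD1. In the second selection it was 3.42 in HAD2, against 3.58 in LAD2.

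Few members differed between the lines of a pair. A probe set was called at a limma p under 0.05 after Benjamini-Hochberg adjustment over all 21204. In HAD1/LAD1, 1 of the 50 member probe sets was called (2%), and 5.41% of all probe sets were. By direction, 0 members were higher and 1 lower in HAD1, beside 2.93% and 2.48% of all probe sets. In HAD2/LAD2, 3 of 50 were called (6%), against 7.03% of all. Of these, 2 were higher and 1 lower in HAD2, beside 3.81% and 3.22% of all. Both shares of members were near or under those of the whole table. In AA/ANA none was called, where 3.16% of all were. None was called in P/NP or in sP/sNP, where 0.00472% and 0% of all probe sets were called. At an unadjusted limma p under 0.05 there were 5 members in HAD1/LAD1, 4 in HAD2/LAD2, 5 in P/NP, 6 in AA/ANA and 0 in sP/sNP, and the whole table had 15.9%, 16.9%, 4.35%, 12.7% and 1% at that level.

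The members also did not lie to one side as a group in the HAD/LAD pairs. Their median difference, high minus low line, was -0.001 on the log2 scale in HAD1/LAD1 and -0.006 in HAD2/LAD2, beside 0.007 and 0.009 for all probe sets. In HAD1/LAD1 23 of 50 differences were above 0, and in HAD2/LAD2 21 were. For P/NP the median was 0.048 with 39 above 0, for AA/ANA 0.019 with 30, and for sP/sNP 0.029 with 39, each beside a median of all probe sets within 0.004 of 0. Median absolute differences were 0.071 in HAD1/LAD1 and 0.074 in HAD2/LAD2, beside 0.061 and 0.065 for all probe sets.

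A missing call did not by itself show equal levels. The 95% interval of the difference lay within a 1.2-fold change either way for 27 of 50 member probe sets in HAD1/LAD1, 26 in HAD2/LAD2, 24 in P/NP, 21 in AA/ANA and 23 in sP/sNP. Over all probe sets these shares were 68.4%, 65.4%, 66.3%, 63.2% and 68.2%, and for members 54%, 52%, 48%, 42% and 46%. Members had a median standard error of 0.080 in HAD1/LAD1 and 0.106 in P/NP, beside 0.069 and 0.078 for all probe sets, and neither gap was tested. In each HAD/LAD pair 8 of the 50 had both line means under the 7.02 that at least 1 line of the 10 had to reach, and a narrow interval there says little about expression.

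**Figure D1:**
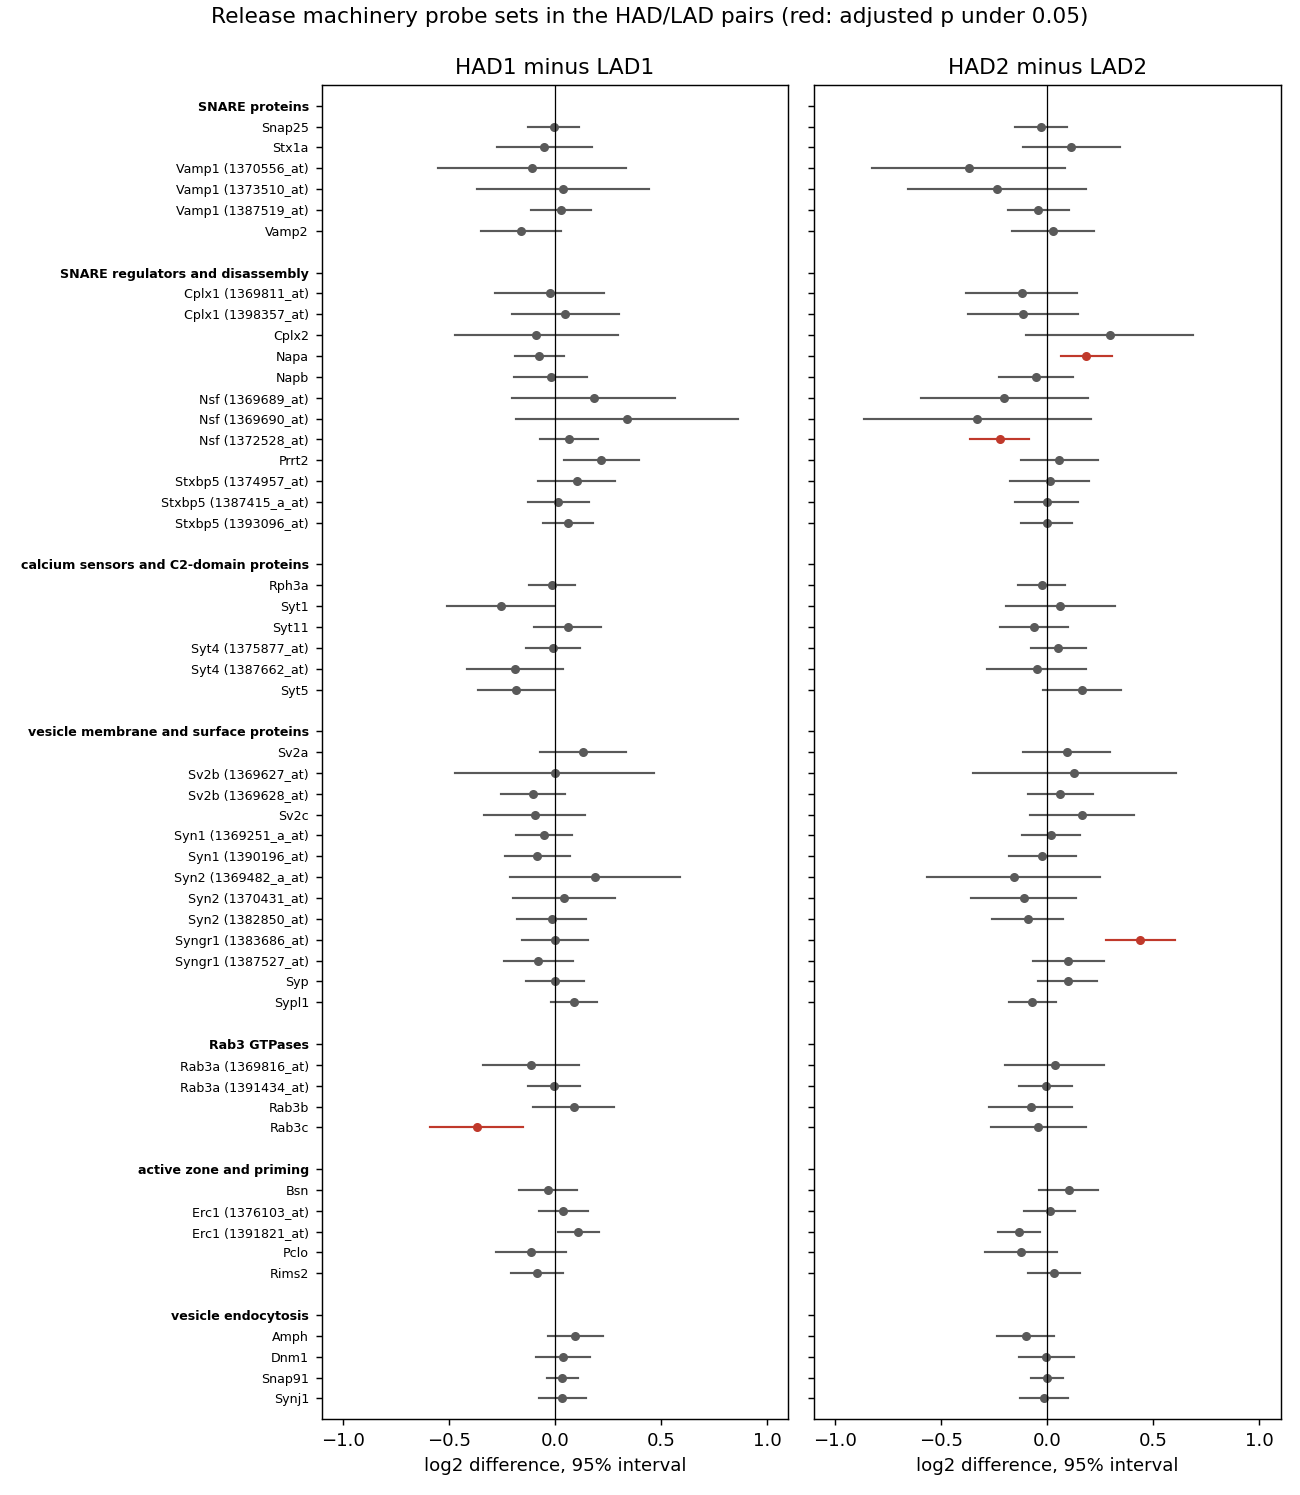
Log2 difference (high minus low line) with its 95% interval for each of the 50 tested member probe sets, by role, in HAD1/LAD1 (left) and HAD2/LAD2 (right). The called probe sets, in red, are Rab3c on the left and Napa, Nsf and Syngr1 on the right. Most other intervals cross 0.

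Among the SNARE proteins that carry out fusion, 0 of 6 probe sets (Snap25, Stx1a, Vamp1 and Vamp2) were called in either HAD/LAD pair, and 0 reached an unadjusted limma p under 0.05. Snap25, the SNARE that bridges syntaxin and synaptobrevin, had narrow intervals. Its lowest, median and highest signals were 14.06, 14.20 and 14.38 in HAD1, against 13.96, 14.20 and 14.48 in LAD1, a difference of -0.01 ± 0.06 (SE). HAD2 gave 14.14, 14.25 and 14.46, against 14.21, 14.30 and 14.38 in LAD2, a difference of -0.03 ± 0.06. The lines overlapped in both pairs, and the intervals ran from -0.12 to 0.11 and from -0.15 to 0.09.

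Vamp2, the main vesicle SNARE of forebrain synapses, stood at 10.53, 10.84 and 11.19 in HAD1, against 10.82, 11.02 and 11.25 in LAD1. The difference of -0.16 ± 0.09 (adjusted p = 0.438) was not called, and in HAD2/LAD2 it was 0.03 ± 0.10. Stx1a, the plasma membrane syntaxin, differed by -0.05 ± 0.11 in HAD1/LAD1 and by 0.11 ± 0.11 in HAD2/LAD2, where the HAD2 array of animal 5 was lowest at 8.36. Without that array the Stx1a difference in HAD2/LAD2 was 0.23 and was not called (limma adjusted p = 0.145). Vamp1, a synaptobrevin used at fast-firing synapses of the brainstem and spinal cord, was measured by 3 probe sets. In HAD2/LAD2 they gave -0.37 ± 0.22, -0.24 ± 0.21 and -0.04 ± 0.07, and none was called. The brightest of them (1373510_at) ran over 12.05, 12.75 and 13.48 in HAD2, against 12.59, 12.99 and 13.41 in LAD2, and its groups overlapped.

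In P/NP Stx1a and Vamp2 reached an unadjusted p under 0.05 and were not called. Stx1a averaged 7.80 ± 0.70 (SD, n = 9) in P, against 7.32 ± 0.88 (SD, n = 10) in NP, a difference of 0.48 ± 0.22 (limma adjusted p = 0.997). Vamp2 averaged 11.99 ± 0.44 in P and 11.68 ± 0.64 in NP, a difference of 0.31 ± 0.15 (limma adjusted p = 0.997). Without the arrays P 10 and NP 8, which had the lowest Th, the differences were 0.19 ± 0.20 for Stx1a and 0.11 ± 0.13 for Vamp2, an alternative chosen after seeing the data. Other arrays with low dopamine neuron markers stayed in. The mean of 16 such probe sets was 9.52 in P 8 and 9.72 in NP 3, beside line medians of 11.14 and 11.01. With array weights, which let limma count variable arrays for less, the Stx1a difference was 0.77 ± 0.16 (limma adjusted p = 0.00583). The Vamp2 difference was then 0.51 ± 0.11 (limma adjusted p = 0.00644). Both were called higher in P, in a setting where the calls over all 21204 probe sets rose from 1 to 1225. The size of these differences thus moved with how the arrays were weighted. NP 8 was the lowest NP array for Stx1a at 5.93, and P 10 was the highest P array at 8.86. The part of tissue composition in this spread was not tested.

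**Figure D2:**
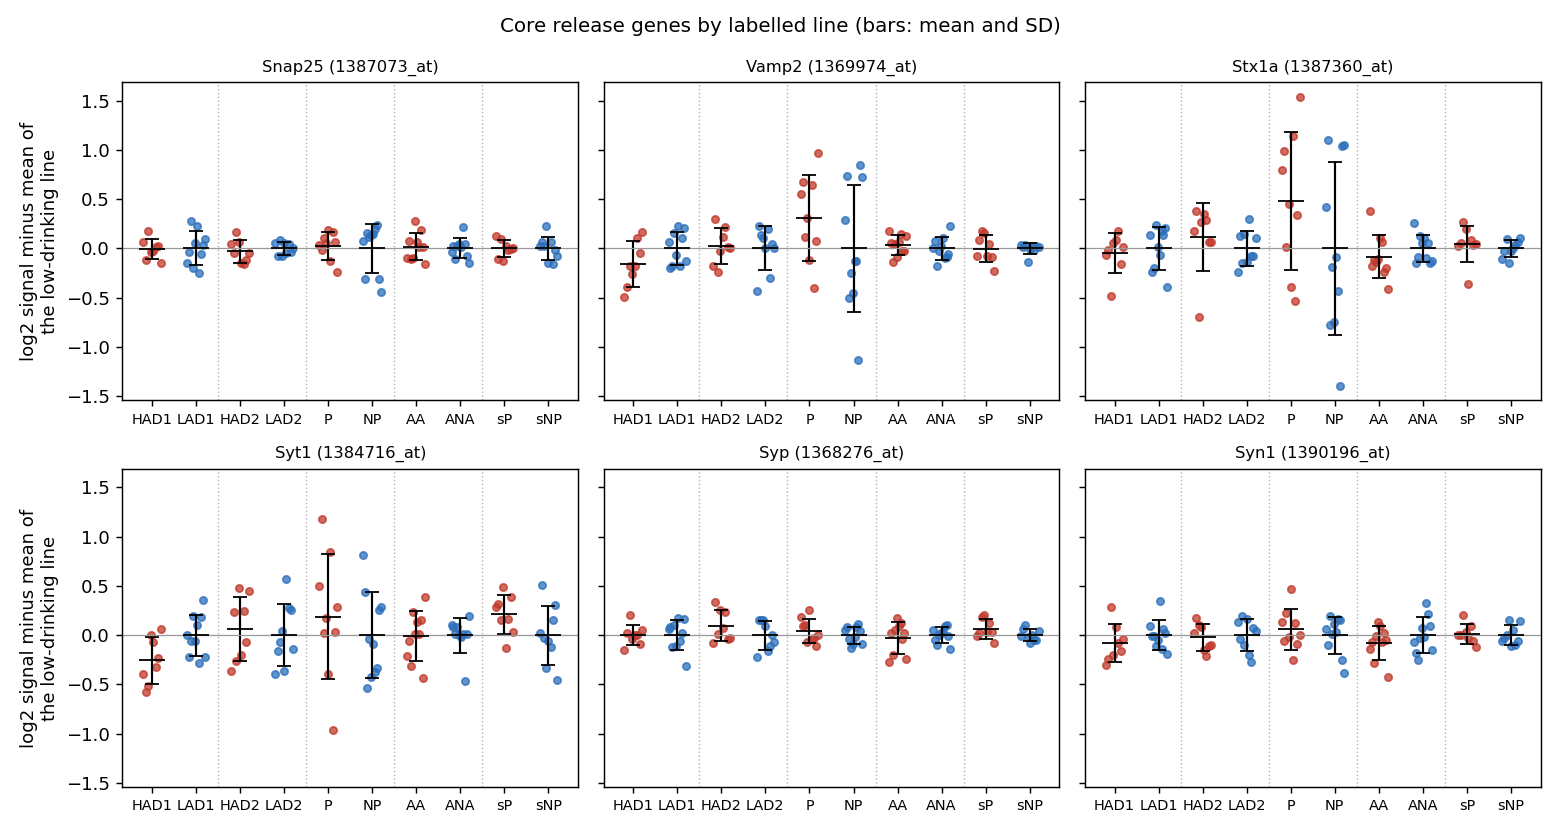
Log2 signal of 6 core release genes in every array, minus the mean of the low-consumption line of its pair, with high lines in red and low lines in blue; bars are mean and SD. The high and low lines of a pair overlap in every panel, and Stx1a, Syt1 and Vamp2 spread most among arrays labelled P and NP.

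Of the 12 probe sets for proteins that regulate or take apart the SNARE complex (Cplx1, Cplx2, Napa, Napb, Nsf, Prrt2 and Stxbp5), 0 were called in HAD1/LAD1 and 2 in HAD2/LAD2, 1 higher and 1 lower. Nsf is the ATPase that pulls used SNARE complexes apart, and Napa codes for alpha-SNAP, the adaptor through which it grips them. The RefSeq promoters (GRCr8, 250 bases before to 50 after the start) of these 2 genes are shown because both were called in the same pair. They lie at chr10:89357334-89357633 on the minus strand for Nsf and at chr1:85915185-85915484 on the plus strand for Napa. Capitals mark the E-box CACGTG, the CRE TGACGTCA and the GC box GGGCGG (or CCGCCC on the other strand).
Nsf: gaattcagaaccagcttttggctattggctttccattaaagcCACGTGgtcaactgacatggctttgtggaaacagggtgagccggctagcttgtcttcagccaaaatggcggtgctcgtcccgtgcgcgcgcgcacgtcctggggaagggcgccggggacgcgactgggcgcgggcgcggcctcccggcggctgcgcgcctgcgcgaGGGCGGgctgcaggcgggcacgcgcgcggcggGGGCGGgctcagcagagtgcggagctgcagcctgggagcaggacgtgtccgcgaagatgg
Napa: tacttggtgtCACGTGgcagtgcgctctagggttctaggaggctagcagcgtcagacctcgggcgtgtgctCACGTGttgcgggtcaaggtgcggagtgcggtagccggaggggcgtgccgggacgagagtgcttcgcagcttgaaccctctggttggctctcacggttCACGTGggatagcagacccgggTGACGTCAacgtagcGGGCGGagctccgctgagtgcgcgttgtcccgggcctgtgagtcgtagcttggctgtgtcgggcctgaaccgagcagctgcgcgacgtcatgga
The Nsf window held 1 E-box and 2 GC boxes, and the Napa window held 3 E-boxes, 1 CRE and 1 GC box, in the reference strain rather than in these lines.

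Napa was higher in HAD2. Its lowest, median and highest log2 signals were 11.63, 11.88 and 12.05 in HAD2, against 11.53, 11.67 and 11.84 in LAD2, and the groups overlapped. The difference was 0.18 ± 0.06 (SE; 1.14-fold, limma adjusted p = 0.0466). It was close to the threshold: centring each array on its median gave an adjusted p of 0.0733, testing with no filter 0.0586, fitting the pair alone 0.0751, and leaving out 1 of the 35 arrays ended the call in 22 cases. In HAD1/LAD1 Napa stood at 11.66, 11.86 and 12.08 in HAD1, against 11.83, 11.93 and 12.08 in LAD1, a difference of -0.07 ± 0.06. Napb, coding for the brain form beta-SNAP, differed by -0.02 ± 0.08 in HAD1/LAD1 and by -0.05 ± 0.09 in HAD2/LAD2.

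Nsf was lower in HAD2 by its brightest probe set (1372528_at). Signals were 13.31, 13.42 and 13.76 in HAD2, against 13.56, 13.67 and 13.97 in LAD2, again with overlap. The difference was -0.22 ± 0.07 (0.856-fold, limma adjusted p = 0.0403). It was not called in a fit of all 91 arrays (adjusted p = 0.338), with no filter (0.0507) or with the pair fitted alone (0.0724), nor in 10 of the 35 fits that left out 1 array. The other Nsf probe sets gave -0.20 ± 0.19 (1369689_at) and -0.33 ± 0.26 (1369690_at) in HAD2/LAD2 and were not called. All 3 leaned the other way in HAD1/LAD1, at 0.07 ± 0.07, 0.18 ± 0.19 and 0.34 ± 0.26, none called. The test of the difference between the pairs did not call any of them.

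Complexins clamp and then assist the assembled SNARE complex. Cplx1 (1398357_at) stood at 13.56, 13.91 and 14.31 in HAD2, against 13.76, 14.13 and 14.26 in LAD2, a difference of -0.11 ± 0.13. Cplx2 differed by 0.30 ± 0.19 in HAD2/LAD2 (adjusted p = 0.5) and by -0.09 ± 0.19 in HAD1/LAD1. Stxbp5, or tomosyn, which binds syntaxin and holds back SNARE assembly, differed by at most 0.10 at its 3 probe sets in both pairs, with none called.

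Prrt2 codes for a presynaptic membrane protein that binds SNAP-25 and synaptotagmin and whose human gene is mutated in paroxysmal movement disorders. Its RefSeq promoter lies at chr1:191059129-191059428 on the minus strand (GRCr8), and is shown because Prrt2 was the member called in the mean of the 5 pairs. None of the motifs searched was in this window.
Prrt2: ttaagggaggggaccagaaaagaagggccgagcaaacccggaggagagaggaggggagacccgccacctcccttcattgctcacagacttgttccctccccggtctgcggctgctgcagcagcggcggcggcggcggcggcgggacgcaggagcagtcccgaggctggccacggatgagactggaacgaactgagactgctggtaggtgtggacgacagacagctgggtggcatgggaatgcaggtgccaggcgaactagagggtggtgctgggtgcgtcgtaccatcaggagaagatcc
At its tested probe set (1384755_at) Prrt2 was higher in HAD1 arrays by 0.22 ± 0.09 (limma adjusted p = 0.174), with 8.41, 8.76 and 8.90 in HAD1, against 8.08, 8.48 and 8.77 in LAD1. In HAD2/LAD2 the difference was 0.06 ± 0.09. Arrays labelled P had 9.002, 9.49 and 10.49, against 8.43, 9.08 and 9.74 in NP, a difference of 0.34 ± 0.12 (limma adjusted p = 0.997).

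For arrays labelled AA, Prrt2 stood at 9.29, 9.84 and 10.08, against 9.27, 9.43 and 9.63 in ANA, a difference of 0.37 ± 0.12 (adjusted p = 0.0762) that was not called. That difference was called without AA 1, AA 19 and ANA 20, at 0.44 ± 0.13 (adjusted p = 0.0312), with the pair fitted alone (0.0187), and in a fit of all arrays (0.0264). Over all probe sets those settings gave 921, 381 and 836 calls in AA/ANA, against 670 as reported. In sP/sNP it was 0.01 ± 0.13. Lines overlapped in all 5 pairs. The mean of the 5 differences was 0.20 ± 0.05 (1.15-fold, limma adjusted p = 0.0117), 1 member called higher of 50, where 1.17% of all probe sets were called higher. The adjusted p of that mean stayed between 0.00404 and 0.0189 when any 1 of the 91 arrays was left out. Its largest differences, 0.37 in AA/ANA and 0.34 in P/NP, come from the 56 arrays whose labels may be misplaced. Leaving out 1 array at a time cannot address that. Without P 10 and NP 8 the P/NP difference was 0.14 ± 0.10. In the mean of the HAD/LAD pairs alone Prrt2 was not called, and no probe set of the SNARE regulators exceeded 0.14 there. The other Prrt2 probe set (1397037_at) was too dim to be tested.

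**Figure D3:**
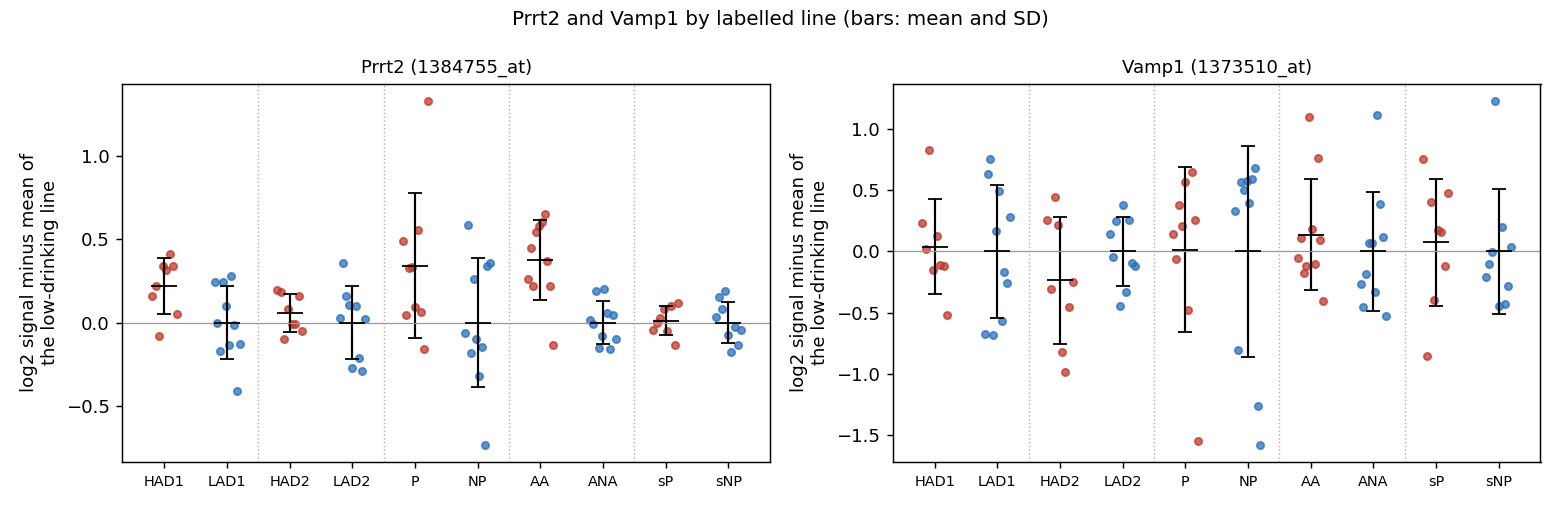
Log2 signal of Prrt2 (left) and Vamp1 (right) in every array, minus the mean of the low-consumption line of its pair, with high lines in red and low lines in blue; bars are mean and SD. Prrt2 averages above the low line by 0.01 to 0.37 in the 5 pairs and Vamp1 spreads over more than 1 log2 unit within single lines.

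Calcium sensors and related proteins with C2 domains (Syt1, Syt4, Syt5, Syt11 and Rph3a) had 0 of 6 probe sets called in any pair. The closest were in HAD1/LAD1, with 2 at an unadjusted limma p under 0.05. Syt1, the fast calcium sensor of synchronous release, stood at 6.57, 6.87 and 7.21 in HAD1, against 6.87, 7.12 and 7.50 in LAD1, a difference of -0.26 ± 0.13 (adjusted p = 0.309). These signals lie near the filter level of 7.02, and the highest Syt1 mean in any line was only 7.996. Syt5, another synaptotagmin, stood at 8.63, 8.84 and 9.17 in HAD1, against 8.72, 9.10 and 9.34 in LAD1, a difference of -0.18 ± 0.09 (adjusted p = 0.305). Both overlapped between the lines, and in HAD2/LAD2 the differences were 0.06 ± 0.13 for Syt1 and 0.16 ± 0.09 for Syt5. Syt4, a synaptotagmin that does not bind calcium well, was bounded between -0.14 and 0.12 in HAD1/LAD1 and between -0.08 and 0.18 in HAD2/LAD2 at its brightest probe set (1375877_at). Syt11 differed by 0.06 ± 0.08 in HAD1/LAD1 and by -0.06 ± 0.08 in HAD2/LAD2, where both its line means were under 7.02. Rph3a, an effector of Rab3, differed by -0.01 ± 0.05 and -0.03 ± 0.06 in the same pairs. Rph3a stood at only 4.73 to 5.27 in HAD1, against 4.89 to 5.12 in LAD1, and at 5.10 to 5.33 in HAD2, against 5.05 to 5.34 in LAD2. It was tested because other lines were brighter, so these small differences do not show equal expression.

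Vesicle membrane and surface proteins formed the largest group, with 13 probe sets for Syn1, Syn2, Syp, Sypl1, Sv2a, Sv2b, Sv2c and Syngr1. In HAD1/LAD1 0 were called, with 0 at an unadjusted limma p under 0.05, and in HAD2/LAD2 1 was higher. That member was Syngr1, a tetraspan vesicle protein related to synaptophysin. At probe set 1383686_at its signals were 6.72, 7.004 and 7.37 in HAD2, against 6.39, 6.55 and 6.65 in LAD2. Every HAD2 array was above every LAD2 array, the only member and pair without overlap. The share of all probe sets without overlap in a pair was not counted. The difference was 0.44 ± 0.08 (1.356-fold, 95% interval 0.28 to 0.60, limma adjusted p = 0.000159), and it stayed called in all 35 fits that left out 1 array, between 0.38 and 0.48.

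The Syngr1 result had 2 limits. Its other probe set (1387527_at) gave 5.89, 6.21 and 6.50 in HAD2, against 5.90, 6.05 and 6.28 in LAD2, a difference of 0.10 ± 0.08 that was not called. Both HAD2 and LAD2 medians of 1383686_at were below 7.02, the level that the highest line mean had to reach, and the probe set was tested because other lines were brighter. In HAD1/LAD1 the same probe set stood at 7.04, 7.24 and 7.57 in HAD1, against 7.08, 7.23 and 7.64 in LAD1, a difference of 0.00 ± 0.08. The difference between the pairs, -0.44 ± 0.11 (limma adjusted p = 0.0101), was 1 of 2 member calls in that test, where 5.67% of all probe sets were called. The mean of the pairs, 0.22 ± 0.06, was called (adjusted p = 0.00911), the 1 member call where 6.98% of all were.

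Syp, or synaptophysin, a major protein of the vesicle membrane, stood at 11.89, 12.05 and 12.25 in HAD1, against 11.73, 12.09 and 12.22 in LAD1, a difference of 0.00 ± 0.07. HAD2 gave 12.15, 12.28 and 12.57, against 12.01, 12.23 and 12.39 in LAD2, a difference of 0.10 ± 0.07. Syn1 (1390196_at), which tethers vesicles in the reserve pool, differed by -0.08 ± 0.08 in HAD1/LAD1 and by -0.02 ± 0.08 in HAD2/LAD2. Its relative Syn2 lay between -0.16 and 0.19 at 3 probe sets in both pairs. Sv2a, Sv2b and Sv2c, transporter-like glycoproteins of which SV2A binds levetiracetam, lay between -0.10 and 0.16. Sypl1, a relative of synaptophysin also found outside neurons, differed by 0.09 ± 0.05 in HAD1/LAD1 and by -0.07 ± 0.05 in HAD2/LAD2. Among arrays labelled AA and ANA, Sv2b (1369628_at) differed by 0.17 (limma adjusted p = 0.0762) and was called, at 0.16 ± 0.04 (adjusted p = 0.0109), without AA 1, AA 19 and ANA 20. Without these arrays the AA/ANA calls over all probe sets rose from 670 to 921.

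Rab3 proteins are small GTPases that ride on vesicles and bind active zone proteins. Of 4 probe sets for Rab3a, Rab3b and Rab3c, 1 was called lower in HAD1/LAD1 and 0 were called in HAD2/LAD2, with 0 there at an unadjusted limma p under 0.05. The RefSeq promoter of Rab3c, the member called, lies at chr2:43575894-43576193 on the minus strand (GRCr8) and held 1 GC box, in capitals.
Rab3c: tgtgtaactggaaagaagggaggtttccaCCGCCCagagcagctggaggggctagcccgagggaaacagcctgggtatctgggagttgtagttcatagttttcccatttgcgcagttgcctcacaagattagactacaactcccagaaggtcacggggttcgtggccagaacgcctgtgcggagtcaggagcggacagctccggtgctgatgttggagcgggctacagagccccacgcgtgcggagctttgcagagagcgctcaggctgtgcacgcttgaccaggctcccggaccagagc
Rab3c (1387147_at) stood at 8.19, 8.51 and 8.77 in HAD1, against 8.14, 8.93 and 9.16 in LAD1. Most LAD1 arrays were above every HAD1 array, but the groups overlapped, and the LAD1 array of animal 37 was lowest of all at 8.14. The difference was -0.37 ± 0.11 (0.775-fold, 95% interval -0.59 to -0.15, limma adjusted p = 0.034).

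Without the LAD1 array of animal 37 the Rab3c difference was -0.45 (adjusted p = 0.0011). Leaving out any of 11 other arrays in turn ended the call (adjusted p up to 0.0878), as did fitting the pair alone (0.0645). In HAD2/LAD2 Rab3c stood at 7.01, 7.56 and 7.75 in HAD2, against 7.16, 7.59 and 7.89 in LAD2, a difference of -0.04 ± 0.11. It was -0.24 ± 0.11 in P/NP (limma adjusted p = 0.997), where P 10 was the lowest P array at 7.76, and -0.12 ± 0.09 there without P 10 and NP 8. It was 0.13 ± 0.11 in AA/ANA and 0.05 ± 0.12 in sP/sNP, so the sign was not shared by all pairs. Rab3a, the main neuronal Rab3, differed by 0.00 ± 0.06 in HAD1/LAD1 and by -0.01 ± 0.06 in HAD2/LAD2 at its brighter probe set (1391434_at). Rab3b differed by 0.09 ± 0.09 and -0.08 ± 0.10 in the same pairs.

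**Figure D4:**
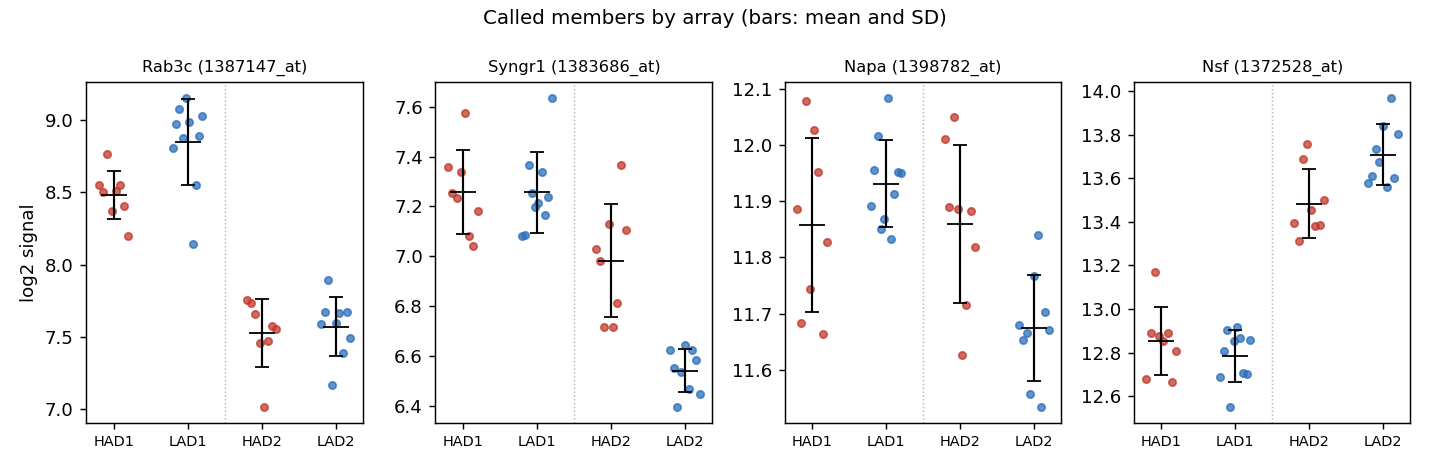
Log2 signal in every HAD and LAD array of the 4 members called in HAD1/LAD1 or HAD2/LAD2, high lines in red and low lines in blue; bars are mean and SD. Syngr1 in HAD2 and LAD2 is the only case shown in which the lines of a pair do not overlap. How many of all probe sets do not overlap was not counted.

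At the active zone, where vesicles are docked and primed, 5 probe sets for Bsn, Pclo, Erc1 and Rims2 were tested and 0 were called in either HAD/LAD pair, with 1 in each at an unadjusted limma p under 0.05. Both of these were Erc1, which codes for the scaffold ELKS. At probe set 1391821_at it stood at 8.79, 8.90 and 8.99 in HAD1, against 8.63, 8.79 and 8.91 in LAD1, a difference of 0.11 ± 0.05 (adjusted p = 0.218). HAD2 gave 9.03, 9.11 and 9.29, against 9.10, 9.24 and 9.49 in LAD2, a difference of -0.13 ± 0.05 (adjusted p = 0.103). The 2 differences were of opposite sign, and the difference between them, 0.24 ± 0.07, was called (adjusted p = 0.023), though not in the fit of all 91 arrays (0.0568). The other Erc1 probe set (1376103_at) gave 0.04 ± 0.06 and 0.01 ± 0.06. Bsn, coding for the large scaffold Bassoon, differed by -0.03 ± 0.07 in HAD1/LAD1 and by 0.10 ± 0.07 in HAD2/LAD2. Pclo, coding for its relative Piccolo, differed by -0.11 ± 0.08 and -0.12 ± 0.08, and Rims2, a Rab3 effector of the active zone, by -0.08 ± 0.06 and 0.03 ± 0.06, both with line means under 7.02 in these pairs.

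None of the genes that retrieve vesicle membrane was called. Of 4 probe sets (Amph, Dnm1, Snap91 and Synj1) 0 were called in any pair. Dnm1, the GTPase that pinches vesicles off, differed by 0.04 ± 0.06 in HAD1/LAD1 and by -0.01 ± 0.06 in HAD2/LAD2. Snap91, the clathrin adaptor AP180, stood at 13.68, 13.72 and 13.74 in HAD1, against 13.58, 13.66 and 13.83 in LAD1, a difference of 0.04 ± 0.04. Synj1, which strips the clathrin coat through its lipid phosphatase activity, differed by 0.03 ± 0.05 and -0.02 ± 0.06. Amph, the amphiphysin that recruits dynamin, gave 0.10 ± 0.06 in HAD1/LAD1 and -0.10 ± 0.07 in HAD2/LAD2, with all 4 line means under 7.02. Its intervals were wider elsewhere, from -0.13 to 0.28 in AA/ANA and from -0.13 to 0.31 in sP/sNP. At an unadjusted limma p under 0.05 the count was 0 in each pair as well.

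**Figure D5:**
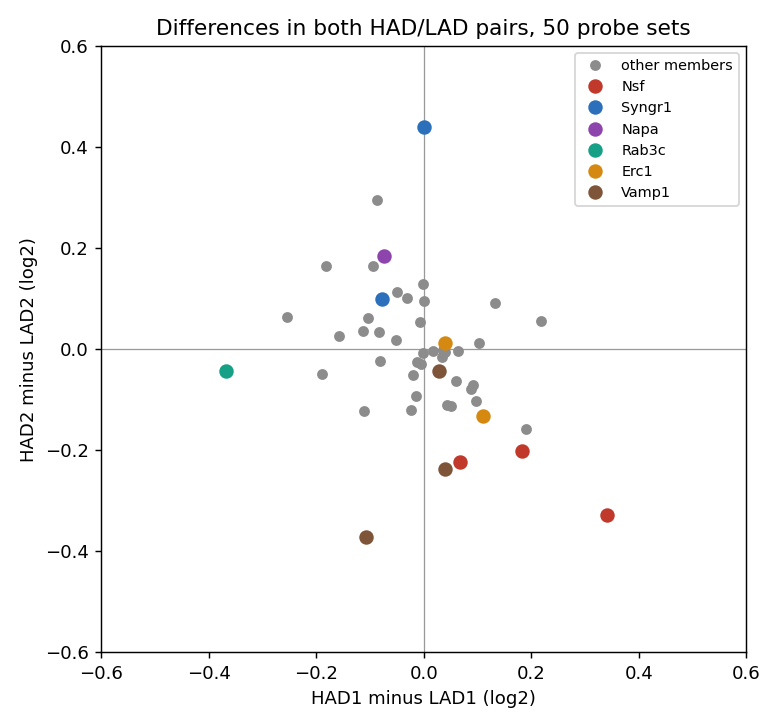
Log2 difference in HAD1/LAD1 (horizontal) against HAD2/LAD2 (vertical) for the 50 tested member probe sets, which share no arrays between axes. Syngr1 lies at 0.00 and 0.44, Rab3c at -0.37 and -0.04, and the 3 Nsf probe sets lie right of 0 and below 0.

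Where a gene had several tested probe sets, these did not always lean one way. Of 11 such genes, all probe sets had 1 sign in 7 for HAD1/LAD1, 6 for HAD2/LAD2, 8 for P/NP, 7 for AA/ANA and 6 for sP/sNP. The 11 probe sets below the filter had highest line means between 5.56 and 6.99, and they include second probe sets of Bsn, Pclo, Prrt2, Snap91, Stx1a, Sv2b and Vamp2.

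Between animals of a line the members' median SD was above that of all probe sets. It was 0.164 in HAD1, against 0.175 in LAD1, beside 0.134 and 0.143 for all probe sets. HAD2 had 0.186, against 0.157 in LAD2, beside 0.143 and 0.141. Arrays labelled P had 0.281, against 0.277 in NP, beside 0.178 and 0.184. Vamp1 had the highest member SD in LAD2 and in all 6 lines of P, NP, AA, ANA, sP and sNP. At probe set 1370556_at it ran between 9.64 and 12.58 in arrays labelled P, and between 9.48 and 12.54 in NP, with NP 8 highest. Nsf (1369690_at) had the highest SD in HAD1, 0.696, between 8.49 in animal 30 and 10.32 in animal 23, and 2 of the 3 Vamp1 probe sets (1370556_at and 1373510_at) were lowest and highest in the same 2 animals. The mean level of 18 neuron marker probe sets was lowest in animal 30 (11.44) and highest in animal 23 (12.32) of HAD1 too. Its part in the spread was not tested.

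Some markers of cell types were called in these pairs, in lists that mostly held differences of both signs. In HAD1/LAD1 the neuron markers had 0 of 18 probe sets called, with list levels between 11.44 and 12.32 in HAD1 and between 11.24 and 12.22 in LAD1. Dopamine neuron markers had 2 of 16 called there, both lower in HAD1, Ddc (-0.69 ± 0.17) and Slc18a2 (-0.71 ± 0.21). Over the 16 the median was -0.08 and the differences ran from -0.71 to 0.31, with list levels of 10.96 to 11.44 in HAD1 and 10.86 to 11.80 in LAD1. The microglia gene Cx3cr1 was lower in HAD1 (-0.33, 1 of 6 called, list median -0.07), and the endothelial gene Tek (0.39, 1 of 6, list median -0.005) and the oligodendrocyte gene Mobp (0.30, 1 of 11, list median 0.04) were higher. Of all probe sets, 5.41% were called in HAD1/LAD1 and 7.03% in HAD2/LAD2. A link between these markers and the lower Rab3c was not tested. In HAD2/LAD2, 1 of 18 neuron probe sets was called, a Map2 probe set that was lower by 1.98 ± 0.20 in HAD2. The neuron list levels, means that include this probe set, were 11.25 to 12.15 in HAD2 and 11.71 to 12.15 in LAD2. The median difference of that list was -0.05. Of 16 dopamine probe sets 0 were called, with a list median of 0.13. There, 2 of 6 microglia probe sets, both P2ry12, were higher (0.53 and 0.54), but the list ran from -0.30 to 0.54 with a median of -0.007, and its levels were 8.54 to 9.19 in HAD2 and 8.50 to 8.80 in LAD2. One of 10 astrocyte probe sets, Slc1a3, was higher (0.58), in a list that ran from -0.22 to 0.58 with a median of 0.10. Of 6 endothelial probe sets 2 were lower, Tek (-0.37) and Slco1a4 (-0.20), with a list median of -0.12, and 1 of 11 oligodendrocyte probe sets, Opalin, was lower (-0.33), with a list median of 0.01. The part of cell composition in the member results was not tested.

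Other genes of the release pathway, a list of 97 that included further syntaxins, synaptotagmins, Rab proteins, calcium channels and endocytic adaptors, gave 115 tested probe sets of 78 genes. In HAD1/LAD1 0 were higher and 2 lower (1.74%), with a median of -0.018. Lin7a, a scaffold protein of the presynaptic membrane, was lower there by 0.61 ± 0.15, with both line means under 7.02 (5.21 in HAD1, against 5.82 in LAD1), and Scamp1, a secretory carrier membrane protein, by 0.15 ± 0.05. In HAD2/LAD2 3 were higher and 2 lower (4.35%), with a median of 0.013. The higher ones were Ston2 (0.58 ± 0.17), an endocytic adaptor for synaptotagmin, Rab27a (0.29 ± 0.07) and Rab3d (0.26 ± 0.08), a Rab3 of secretory granules. The lower ones were Syt12 (-0.70 ± 0.20) and Sh3gl2 (-0.38 ± 0.10), which codes for endophilin A1 of vesicle endocytosis. Both shares were under the 5.41% and 7.03% of all probe sets.

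Over 35 RefSeq promoters of 34 member genes, 26 held a GC box (74.3%), 2 an E-box (5.71%), 3 a CRE (8.57%) and 1 the sequence TTCAGCACC, part of the binding site of the neuronal repressor REST (2.86%), all read on both strands. Of 33469 promoters of that length these shares were 33.1%, 6.42%, 1.83% and 0.356%, and of the 10425 promoters of genes with a tested probe set they were 61.3%, 9.25%, 3.13% and 0.508%. Besides Napa, the CRE was in Syn1 and Vamp1, whose probe sets were not called in either HAD/LAD pair. These matches describe the reference sequence only.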

How the data were processed

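Each array held ventral tegmental area RNA of 1 rat. Trizol and RNeasy columns were used to extract the RNA, of which 25 ng went through 2 amplification cycles, per the labels' protocols. The authors deposited 31099 probe sets as log2 signals, and RMA is the method named in the submitters' processing notes, without its version or the arrays processed together. Array number limits the precision.

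Control probe sets (57) were left out. A probe set entered the tests where at least 1 of 10 line means was 7.02 or more, the 40th percentile over the whole table. Names came from the platform annotation, and all 61 member probe sets matched by gene ID to RefSeq (GRCr8). Line means were fitted with limma 3.58.1 (lmFit, eBayes) in R 4.3.3, for the 35 HAD/LAD arrays and the other 56 apart, and for all 91 in the mean of 5 pairs. Tests were 2-sided, adjusted by Benjamini-Hochberg over 21204 probe sets. No paper states a design, and separate animals per array rest on the titles.

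The text names members called in a HAD/LAD comparison or, for the largest, in the others, and 6 core genes. Members named beside these were chosen after their values were seen, and the members and lists were chosen with earlier results of these data known. The fit was tested on simulated data. Animal numbers shared by P and NP gave correlations of array deviations between -0.69 and 0.666, with 6 of 9 over 0.1. Those shared by sP and sNP gave -0.403 to 0.298, with 1 of 8 over 0.1. These values cannot exclude a link between arrays of the same number. The animals were fitted as unpaired.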

Additional observations from a re-analysis of the deposited data

Results flagged for a closer look

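In 19 of 170 sets of arrays of 1 line examined (17 named probe sets in 10 lines), the highest or lowest array lay apart from the rest by more than Dixon's 95% critical value. Chance gives about 1 in 20 for a single set, but the probe sets share arrays. The 19 are therefore not independent, and their number was not tested against chance. The values below are log2 signals, and no cause was tested.

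Animal 4 of sNP was apart 4 times, highest at Napa (12.23), Nsf (13.148) and Syngr1 (7.543) and lowest at Vamp2 (12.283). Animal 23 of HAD1 was lowest at Erc1 probe set 1376103_at (9.094) and highest at Nsf (13.168). Animal 19 of AA, 1 of the arrays outside the distribution set of its pair, was lowest at Napa (11.966) and Syngr1 (7.008), and animal 1 of AA was highest at Rab3c (8.624). Animal 14 of ANA was highest at Nsf (13.116) and Snap25 (14.869), and animal 16 of ANA was lowest at Syt1 (7.099). For Stx1a the lowest arrays were animal 5 of HAD2 (8.36) and animal 6 of sP (7.591). Animal 4 of sP was highest at Erc1 (9.198), animal 7 of HAD2 lowest at Rab3c (7.008), animal 36 of LAD1 highest at Syn1 (10.015), animal 40 of LAD1 highest at Syngr1 (7.635), and animal 10 of P highest at Prrt2 (10.492).

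Between the replicate selections, the difference of Erc1 (1391821_at) in HAD1/LAD1 exceeded that in HAD2/LAD2 by 0.244, and that of Syngr1 (1383686_at) was lower, at -0.439. Both passed the test of the difference between the pairs.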

How the results depend on the processing

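Of 73 recomputed counts of called members under the alternatives that kept all arrays or left out a named set, 55 stayed within 1.5 times the count reported. The cause of the others was not tested, beyond fewer tested probe sets or arrays where the setting itself removes them. With no filter HAD2/LAD2 gave 1 member (Syngr1), and with the pair fitted alone 1, while HAD1/LAD1 fitted alone gave 0. In the difference between the pairs the count was 1 with the filter at the 60th percentile, 4 with quantile normalization (Nsf and Napa added), 0 with 1 probe set per gene, 5 with array weights and 1 with all arrays in 1 fit. The mean of the HAD/LAD pairs gave 0 at the 60th percentile, 0 with 1 probe set per gene and 2 with array weights. Syngr1 1383686_at was not among the probe sets tested at that filter or with 1 per gene. In AA/ANA the count was 1 with centring (Sv2b), 4 with array weights, 1 with all arrays in 1 fit, 1 with the pair alone and 2 without the arrays outside its set. With array weights P/NP gave 7 members, all higher in arrays labelled P (Syt5, Cplx2, Vamp2, Rab3b, Erc1, Prrt2 and Stx1a), and the mean of 5 pairs 2. The share of all probe sets called higher in P in that setting was not counted. Over all probe sets, array weights moved P/NP from 1 call to 1225 and AA/ANA from 670 to 1847. They moved the mean of 5 pairs from 456 to 1571 and sP/sNP from 0 to 2. AA/ANA gave 381 fitted alone, 660 with centring, 836 in 1 fit and 921 without the arrays outside its set. The difference between the pairs gave 864 of 14802 at the 60th percentile, 1271 with quantile normalization, 1641 weighted and 1041 in 1 fit. The mean of the HAD/LAD pairs gave 1066 at the 60th percentile and 1904 weighted. HAD2/LAD2 gave 1492 of 31042 with no filter and 1351 fitted alone, and HAD1/LAD1 917 alone. One probe set per gene gave 459, 668, 247, 550, 632 and 155 calls in HAD1/LAD1, HAD2/LAD2, AA/ANA, the difference, the mean of the pairs and the mean of 5, over 11094 genes.

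Leaving out 1 array at a time gave 0 to 1 members in HAD1/LAD1, 1 to 3 in HAD2/LAD2, 2 to 4 in the difference, 1 to 2 in either mean, 0 to 2 in AA/ANA, and 0 in P/NP and sP/sNP. Over all 21204 probe sets, HAD1/LAD1 had 959 to 1582 calls, HAD2/LAD2 1285 to 1593 and the difference 1083 to 1444. The mean of the HAD/LAD pairs had 1342 to 1744 and the mean of 5 pairs 430 to 548. AA/ANA had 546 to 986, P/NP 0 to 1 and sP/sNP 0. The Rab3c call was lost without animal 22, 25, 29 or 30 of HAD1, or 32, 33, 34, 35, 36, 39 or 40 of LAD1. That of Nsf was lost without animal 2, 3, 7, 8, 9 or 10 of HAD2, or 13, 15, 18 or 20 of LAD2, and that of Napa without 6 HAD2, 7 LAD2, 2 HAD1 or 7 LAD1 arrays. Without AA 19, 2 members were called in AA/ANA and in the mean of 5. Without LAD1 37, 1582 probe sets were called in HAD1/LAD1, against 1147. With the shared animal number as a replicate block, P/NP and sP/sNP gave 0 members each. No value changed sign and call together.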

Other observations

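Genes next to the called members were read in the same pair, taking the 5 nearest tested genes on each side. Around Syngr1, 1 of 10 was called in HAD2/LAD2, Mief1, lower by 0.49 ± 0.06 (limma adjusted p = 3.01e-07), while its neighbour Tab1 gave -0.18 ± 0.07 and was not called. Around Napa, 2 of 10 were called higher in HAD2, Inafm1 (0.47 ± 0.07) and C5ar1 (0.23 ± 0.07). Around Nsf 0 of 10 were called in HAD2/LAD2, and around Rab3c 0 of 10 in HAD1/LAD1. Of all probe sets, 7.03% were called in HAD2/LAD2 and 5.41% in HAD1/LAD1. A link between members and neighbours was not tested.

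Among other genes of the release pathway, the mean of the HAD/LAD pairs held 1 higher and 5 lower probe sets of 115 (5.22%, beside 6.98% of all). Stxbp6, or amisyn, was lower at both its called probe sets (-0.12 ± 0.04 and -0.23 ± 0.05), and Lin7a (-0.51 ± 0.11), Sh3gl2 (-0.25 ± 0.07) and Vamp4 (-0.10 ± 0.03) were lower too. Snap29, a SNARE of several membranes, was higher by 0.14 ± 0.04. In AA/ANA, Cacna1a, the pore of the P/Q-type calcium channel, was lower by 0.34 ± 0.10 in arrays labelled AA, and Vamp4 was higher by 0.29 ± 0.07.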
